A study of Homo sapiens with 4 samples.

Results

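Non-muscle myosin II is built from 2 copies each of a heavy chain, an essential light chain and a regulatory light chain, and the crosslink sites of 7 genes for these chains were examined: the heavy chains MYH9, MYH10 and MYH14, the essential light chain MYL6, and the regulatory light chains MYL9, MYL12A and MYL12B. Members were taken by symbol: every listed crosslink site whose gene label held one of these exact symbols was kept, at all scores and at scores above 5. This gave 380 of 158922 sites in the PDCD4 list and 124 of 111361 sites in the IgG list. The cells were MCF10A, an established non-transformed breast epithelial line, of WT genotype in all 4 samples. The medium, shared by all samples, held horse serum, epidermal growth factor, insulin, hydrocortisone and cholera toxin. In iCLIP, protein is cross-linked to RNA with UV light and immunoprecipitated, here with an antibody to PDCD4, a translation inhibitor, in 2 replicates or with isotype control IgG in 2 replicates. Since the crosslink usually halts reverse transcriptase, cDNA ends mark the contact at 1-nt resolution.

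A non-muscle myosin II heavy chain has a motor head that binds actin and hydrolyses ATP, a neck that carries the light chains, a long coiled-coil rod through which molecules assemble into filaments, and a short tail. Phosphorylation of the regulatory light chain switches the motor on, and myosin phosphatase reverses it. In epithelial cells these filaments contract the actin cortex, stress fibres and junctional belts, and they close the cleavage furrow at division.

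The score of a site is the number of cDNAs that ended there, as deposited and without normalisation, and each list pools its replicates. There was therefore no spread between replicates and no test between PDCD4 and IgG, and the 95% intervals given cover counting error only. The PDCD4 list summed to 409308 cDNAs and the IgG list to 276139. Levels are therefore given per 10000 cDNAs of a list, and ratios as log2 of PDCD4 over IgG with a pseudocount of 1 cDNA. The median log2 ratio of the 3977 genes with at least 50 cDNAs over both lists was -0.14. RNA abundance was not analysed here, and a high count from strong binding cannot be told apart from one that comes from an abundant RNA. Of 11 breast epithelial marker genes, 11 had a site, against 1 of 10 genes listed as markers of other cells (ESR1, with 2 cDNAs). ESR1 is not specific to cells outside the breast.

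The sites that carry the result are shown first, as the 29 nt around each on the strand of the gene in the GRCh38 reference genome, 5′ to 3′, with the cross-linked nucleotide in capitals and DNA letters (T for U). For MYH9 these are the 5 sites with the highest PDCD4 scores. The first, at chr22:36282548-36282576 (minus strand), had 14 cDNAs, the most of any member site, and lay in the 3′UTR. The second and the third, at chr22:36281853-36281881 and chr22:36281959-36281987, had 10 cDNAs each and also lay in the 3′UTR. The site in exon 38, at chr22:36285177-36285205, had 10 cDNAs and lay at codon 1805, within the rod. The last, at chr22:36281410-36281438, had 9 cDNAs, a score it shared with 1 other MYH9 site, and lay in the 3′UTR. For the other members the site with the highest PDCD4 score is shown (the first of the tied sites where several tied), so that a reader can see how low these scores were. The MYH10 site, at chr17:8474899-8474927 (minus strand, 3′UTR), had 4 cDNAs, and the MYL6 site, at chr12:56161467-56161495 (plus strand, 3′UTR), also had 4. The MYL9 site, at chr20:36546052-36546080 (plus strand, intron 2), had 3 cDNAs. The MYL12A site, at chr18:3255923-3255951 (plus strand, 3′UTR), had 4 cDNAs. The MYL12B site, at chr18:3268345-3268373 (plus strand, intron 1), had 3 cDNAs. MYL12B was the member with sites above 5 in the IgG list, and both are shown, a choice made after their values were seen: chr18:3278065-3278093 with 8 cDNAs and chr18:3278023-3278051 with 6 cDNAs, both in the 3′UTR.
MYH9, 3′UTR, 14 cDNAs: gggactgctgtgaaCatgcctcctcctgc
MYH9, 3′UTR, 10 cDNAs: gggaccaaatatatTtaatggttaaggga
MYH9, 3′UTR, 10 cDNAs: cccctcccctccttTaccgaggacagcct
MYH9, CDS, 10 cDNAs: ctgtcaagtccaagTacaaggcctccatc
MYH9, 3′UTR, 9 cDNAs: gtcccagttgctgtCacaaaggagtgagt
MYH10, 3′UTR, 4 cDNAs: gctgaccttgcaaaTtcagccgctgcttt
MYL6, 3′UTR, 4 cDNAs: atctagcctaaagtTtccctaggctttct
MYL9, intron, 3 cDNAs: catctcaggctctcAtagcctctctggtc
MYL12A, 3′UTR, 4 cDNAs: acttcaaattccagCcaaacgttccttgt
MYL12B, intron, 3 cDNAs: atggctattttctgTctgtaagggttgga
MYL12B in IgG, 3′UTR, 8 cDNAs: tatttattccagacCtttctgccacttag
MYL12B in IgG, 3′UTR, 6 cDNAs: gcatgcaacttagtTtcacagctttgcct

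The members were listed very unequally. MYH9 held 930 of the 1117 PDCD4 cDNAs of the members (83.3%) and 236 of their 331 IgG cDNAs (71.3%), while no row of either list carried MYH14. Counted over the members with at least 50 cDNAs, 1 of 3 (MYH9) had a log2 ratio above 1, against 13.6% of all genes tested. Sites above 5 in the PDCD4 list were held by 1 of the 6 members listed, against 7.51% of all genes listed, and in the IgG list by 1 of 6, against 4.17%. With 6 members, 1 gene is the smallest count above 0, and these shares cannot be read as a property of the family.

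Among the heavy chains, MYH9 (ENSG00000100345, chr22:36281280-36388010, minus strand, 41 exons) codes for the heavy chain of myosin IIA. It had 301 sites with 930 cDNAs in the PDCD4 list and 92 sites with 236 cDNAs in the IgG list. Its level was 22.7 per 10000 cDNAs (21.3 to 24.2) for PDCD4 and 8.55 (7.49 to 9.71) for IgG, a log2 ratio of 1.41 (1.20 to 1.62), or 2.65-fold. The intervals of the levels did not overlap. The size of this ratio depended on dense sites: with sites within 20 nt merged and clusters counted in place of cDNAs it was 0.23, and no member passed 1. MYH9 stood 9th of all genes by PDCD4 sum and 324th of 3977 by ratio.

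MYH10 (ENSG00000133026, chr17:8474207-8631376, minus strand, 43 exons), the heavy chain of myosin IIB, had 46 sites with 110 cDNAs for PDCD4 and 18 sites with 46 cDNAs for IgG. Its level was 2.69 per 10000 cDNAs (2.21 to 3.24) for PDCD4 and 1.67 (1.22 to 2.22) for IgG, at a log2 ratio of 0.67 (0.18 to 1.22). The ratio lay above 0 beyond counting error, although the intervals of the levels just overlapped. MYH14 (ENSG00000105357, chr19:50188186-50310542, plus strand, 43 exons), the heavy chain of myosin IIC, was not listed, and no site lay within its span on either strand. Levels per kb are raw cDNA counts per length, not scaled to the totals of the lists, and are compared within a list. Set per length of exon, MYH9 had 98.1 PDCD4 cDNAs per kb (91.1 to 105) and MYH10 10.8 (8.58 to 13.4), with canonical mRNAs of 7451 and 7707 nt. In the IgG list the corresponding levels per kb were 8.99 and 1.17, so that MYH9 was the higher of the pair in both lists.

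**Figure D1:**
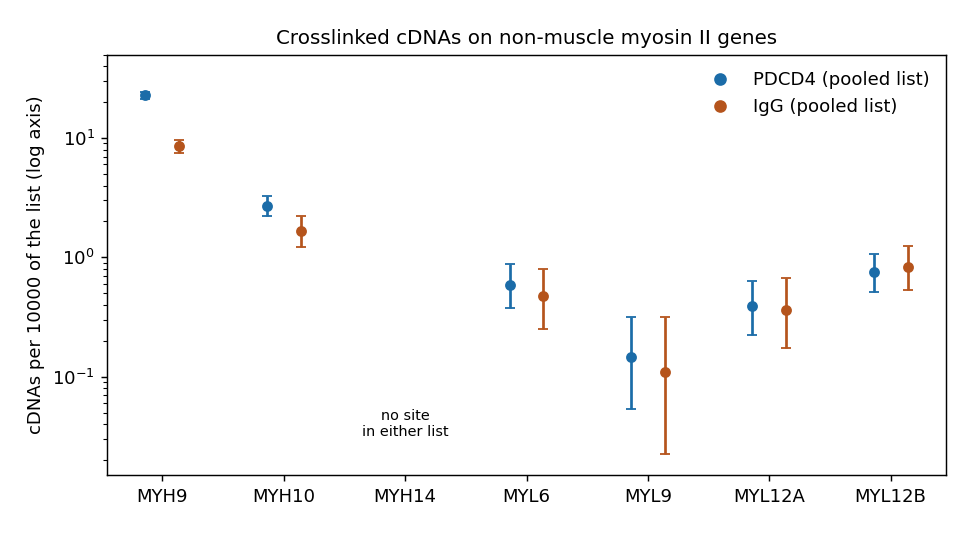
The level of each member in cDNAs per 10000 of the list (logarithmic axis), for PDCD4 and IgG, with bars for the 95% Poisson interval. MYH9 sat at 22.7 for PDCD4 and 8.55 for IgG with separate intervals, the light chains lay below 1 with overlapping intervals, and MYH14 had no site in either list.

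The light chains were sparsely listed and did not differ between the lists beyond counting error. MYL6 (ENSG00000092841, chr12:56158346-56163496, plus strand), the essential light chain, had 10 sites with 24 cDNAs for PDCD4 and 4 sites with 13 for IgG, a log2 ratio of 0.27 (-0.71 to 1.41). MYL12B (ENSG00000118680, chr18:3261479-3278461, plus strand) had 15 sites with 31 cDNAs for PDCD4 and 5 sites with 23 for IgG, a log2 ratio of -0.15 (-0.96 to 0.71). Its direction was not stable, since counting sites in place of cDNAs gave 0.90, and leaving out positions listed for both immunoprecipitations gave 0.22. MYL12A (ENSG00000101608, chr18:3247481-3256236, plus strand), its neighbour on the chromosome, had 6 sites with 16 cDNAs and 4 sites with 10, a log2 ratio of 0.06 (-1.12 to 1.41).

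MYL9 (ENSG00000101335, chr20:36541497-36551447, plus strand), the regulatory light chain typical of smooth muscle, had 2 sites with 6 cDNAs for PDCD4 and 1 site with 3 for IgG, and these sites were intronic. Together the 4 light chain genes had 77 PDCD4 cDNAs and 49 IgG cDNAs, a log2 ratio of 0.07 (-0.45 to 0.63). The signs of the single light chains were not stable either: MYL6 gave -0.39 with sites within 20 nt merged, MYL9 -0.11 with a pseudocount of 5, and MYL12A between -0.08 and -0.03 with that pseudocount, with numbers of sites or with merged sites. Per kb of exon on the canonical transcript, MYL6 had 21.2 PDCD4 cDNAs (11.9 to 34.9), MYL12B 18.9 (11.9 to 28.6) and MYL12A 13.6 (7.23 to 23.2). The intervals of these levels overlapped one another. Set against these, MYH9 was higher beyond its counting interval and MYH10, at 10.8, was not separated from MYL6, MYL12A or MYL12B. In the IgG list the levels per kb were 8.47 for MYL6, 19.8 for MYL12B and 6.26 for MYL12A, against 8.99 for MYH9. There MYH9 was thus not the highest, and MYL12B was.

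Reads of near-identical genes could be divided by the mapping. Of the 30-nt stretches of the MYL12A mRNA, 23.5% also occur in transcripts of other genes, mainly MYL12B. For MYL12B it was also 23.5%, and for MYL6 the share was 18.6%, mainly its paralogue MYL6B and pseudogenes. For MYH9 the share was 1.55%, for MYL9 0.544% and for MYH10 0.0782%. Of the MYH9 sites, 5 of 301 in the PDCD4 list and 1 of 92 in the IgG list were followed by 30 nt found in another gene, as were 2 of 15 PDCD4 sites of MYL12B. No listed site of MYH10, MYL6, MYL9 or MYL12A was. How reads with several matches were treated is not given in the sources used here, and the values of MYL6, MYL12A and MYL12B, whose mRNAs share the most sequence, are uncertain to that extent.

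Within MYH9, the excess of PDCD4 over IgG lay in the mature mRNA. Regions were assigned over all annotated transcripts, with the stop codon counted in the 3′UTR. The 3′UTR held 128 sites with 396 cDNAs for PDCD4 and 11 sites with 29 for IgG, which gave a log2 ratio of 3.16 (2.66 to 3.80) for this region. In the coding sequence (CDS) there were 104 sites with 328 cDNAs and 18 sites with 47, giving a log2 ratio of 2.21 (1.79 to 2.71). The 5′UTR held 5 sites with 21 cDNAs for PDCD4 and was not listed for IgG. Introns, in contrast, held 59 sites with 170 cDNAs for PDCD4 and 61 sites with 155 for IgG, a log2 ratio of -0.44 (-0.76 to -0.11). The IgG list of MYH9 was thus mainly intronic (66.3% of sites, 56.2% to 75.1%), and the PDCD4 list was mainly exonic (introns held 19.6%, 15.5% to 24.5%). The lists had unequal floors for this gene. Each PDCD4 site with 1 or 2 cDNAs had another PDCD4 site close by, whereas lone IgG sites with 2 cDNAs were listed. The intronic ratio was not recomputed at an equal floor.

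The lists as wholes differed in the same direction, which sets the background for these ratios. Over all genes the log2 ratio was 1.11 (1.09 to 1.13) for CDS, 0.22 (0.20 to 0.24) for 3′UTRs and -0.44 (-0.45 to -0.43) for introns. Measured against genes with at least 50 cDNAs in the region, a log2 ratio above 1 was found for 62.3% of genes in the CDS, 22.7% in the 3′UTR and 6.4% in introns. The MYH9 3′UTR ratio stood 12th of 528 genes (median 0.23), its CDS ratio 79th of 387 (median 1.32) and its intronic ratio 825th of 2015 (median -0.61). MYH9 was thus placed highest by its 3′UTR, while its intronic value was that of the list as a whole. These regional ratios and ranks were not recomputed with sites within 20 nt merged, which lowered the whole-gene ratio of MYH9 from 1.41 to 0.23.

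**Figure D2:**
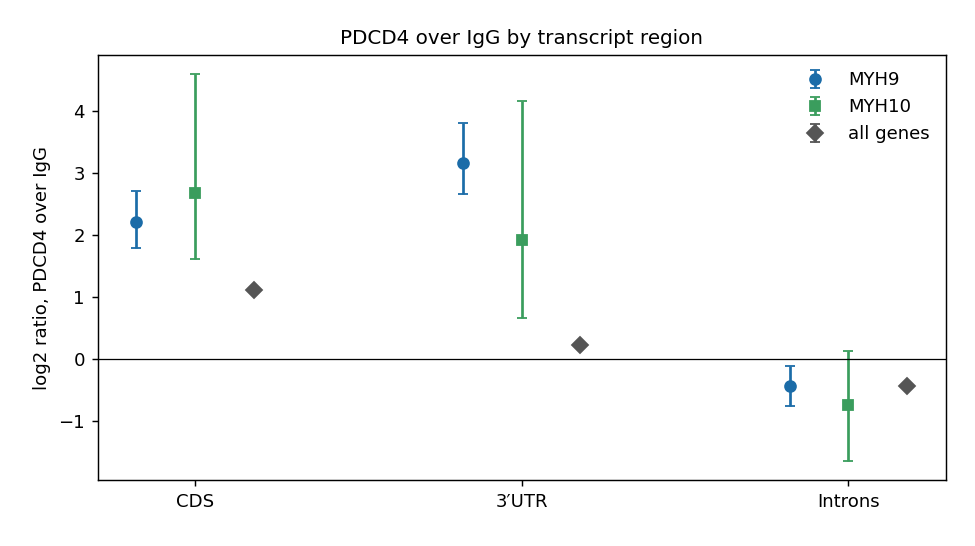
Log2 ratio of PDCD4 over IgG in the CDS, the 3′UTR and the introns of MYH9, MYH10 and all genes, with bars for the 95% counting interval (smaller than the symbol for all genes). The MYH9 3′UTR value of 3.16 lies far above the 0.22 of all genes, while the intronic values of MYH9 and all genes are both -0.44.

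MYH10 had the same division on a smaller base. Its CDS held 23 sites with 56 cDNAs for PDCD4 and 2 sites with 5 for IgG, a log2 ratio of 2.68 (1.61 to 4.60), and its 3′UTR held 10 sites with 27 cDNAs and 1 site with 4, a log2 ratio of 1.92 (0.67 to 4.16). Its introns held 11 sites with 22 cDNAs and 10 sites with 25, a log2 ratio of -0.74 (-1.65 to 0.13). Over CDS and UTRs together the log2 ratio was 2.50 (1.64 to 3.82) for MYH10 and 2.71 (2.38 to 3.09) for MYH9, overlapping values, at rank 84 and rank 60 of 1336 genes. A log2 ratio above 1 for these mature regions was found in 34.8% of the 1336. Over whole genes the ratios were further apart, at 1.41 and 0.67, with intervals that met at their ends.

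MYL12B differed from the heavy chains in its 3′UTR, which held 8 sites with 15 cDNAs for PDCD4 and 5 sites with 23 for IgG, a log2 ratio of -1.15 (-2.23 to -0.18). Both IgG sites above 5 lay there, with 14 of its 23 IgG cDNAs, and the one with 6 cDNAs was also listed for PDCD4, with 1 cDNA. The ratio of this 3′UTR was not recomputed with numbers of sites, which turned the sign for the whole gene. Elsewhere in MYL12B the direction was the opposite: its introns held 4 sites with 9 cDNAs and its CDS 3 sites with 7 for PDCD4, and neither was listed for IgG. The MYL6 3′UTR held 10 sites with 24 cDNAs and 3 sites with 10, a log2 ratio of 0.62 (-0.42 to 1.92), which was not separated from 0. Some of these sites lay in an intron of the canonical transcript. All exons of that transcript held 7 sites with 15 cDNAs for PDCD4 and 2 sites with 6 for IgG. The MYL12A 3′UTR held 4 sites with 10 cDNAs for PDCD4 and 1 site with 3 for IgG.

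Along the MYH9 mRNA the 3′UTR was also the densest part for its length. On the canonical transcript it had 275 PDCD4 cDNAs per kb (248 to 304) and 14.4 IgG cDNAs per kb (8.78 to 22.2). The CDS had 55.8 PDCD4 cDNAs per kb (49.9 to 62.2) and 7.99 IgG cDNAs per kb (5.87 to 10.6), and the introns had 2.01 (1.74 to 2.30) and 1.70 (1.46 to 1.98). Within the PDCD4 list the 3′UTR interval lay above that of the CDS, and the introns lay far below both. Scaled to the totals of the lists, the same introns gave a log2 ratio of -0.33 (-0.64 to -0.03), with IgG the higher under the unequal floors given above. The PDCD4 sites of the 3′UTR were spread over it, from 1 to 1330 nt after the last sense codon of a UTR of 1391 nt. Cut into equal parts of 464 nt, it held 162, 79 and 141 PDCD4 cDNAs from the stop codon onward, at 48, 20 and 56 sites, against 8, 9 and 3 IgG cDNAs. The middle was thus the sparsest for PDCD4, and no single position made up the 3′UTR sum.

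Of the 21 MYH9 sites above 5, with 167 cDNAs, 12 lay in the 3′UTR (97 cDNAs), 7 in the CDS (56 cDNAs) and 2 in the 5′UTR (14 cDNAs). No IgG site of MYH9 passed this threshold, the highest being 5. At the threshold itself, 17 PDCD4 sites of MYH9 had a score of 5 and 5 sites a score of 6. The median score of its sites was 3 for PDCD4 (1 to 14) and 2 for IgG (1 to 5). Each median equals the lowest score of a lone MYH9 site in its list, so their difference cannot be read as a property of the gene. Near the start codon, the highest 5′UTR site had 8 cDNAs and lay 9 nt before the A of the AUG, in exon 2, with a second site of 2 cDNAs 11 nt before it. The remaining 5′UTR sites lay in exon 1, with 6, 3 and 2 cDNAs. At the other end of the reading frame, a site with 7 cDNAs lay on base 1 of the stop codon. These landmarks were looked up after the values were seen.

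**Figure D3:**
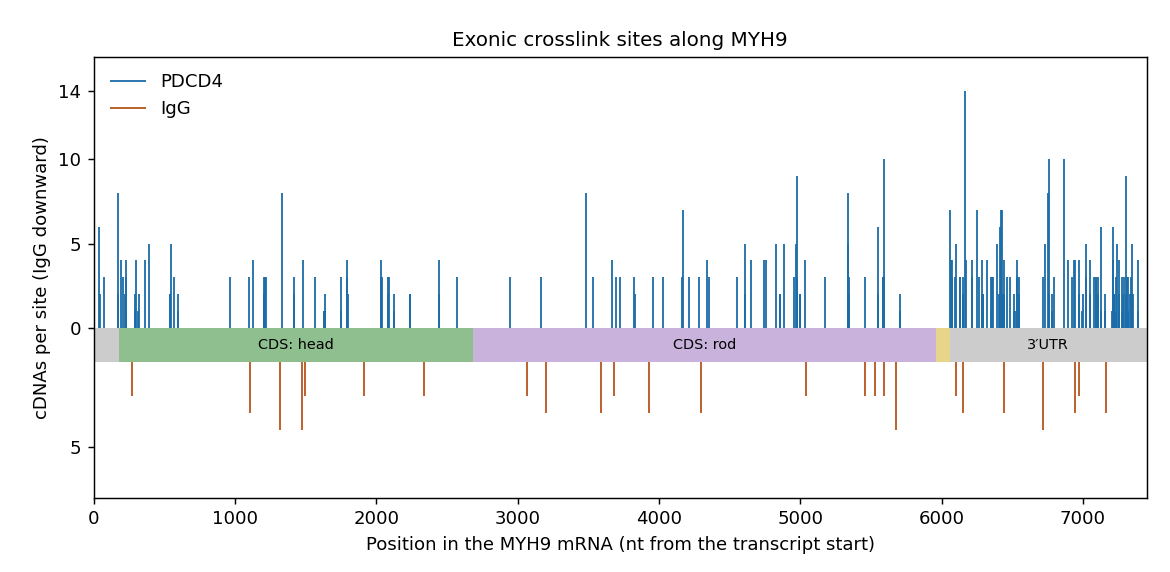
cDNAs per crosslink site along the MYH9 mRNA in nt from the transcript start, with PDCD4 upward and IgG downward, and the head, rod and tail (yellow) of the CDS between grey UTRs. PDCD4 sites crowd into the 3′UTR, with the highest score of 14, and no IgG site exceeds 5.

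The coding sites of MYH9 did not favour the rod by number. The rod was taken as the longest run of codons without a proline codon, since proline breaks the coiled coil: codons 837 to 1926 of 1960, or 55.6% of the CDS. It held 49 of 104 PDCD4 sites (47.1%, 37.8% to 56.6%) and 11 of 18 IgG sites (61.1%, 38.6% to 79.7%). Without the last 60 nt of exons that precede an intron, where no PDCD4 site of the members lay, the rod made up 57.95% of the CDS, above the interval of the PDCD4 share. That interval treats sites as independent although some were adjacent, so it is too narrow to show a depletion. By cDNAs the rod held 55.2% of the coding PDCD4 sum. Per kb, the part before the rod, with the head and neck, had 58.6 PDCD4 cDNAs (49.5 to 68.9) and the rod 55.4 (47.6 to 64.0), and without the exon ends 105 (88.7 to 123) and 87.4 (75.2 to 101), and both pairs of intervals overlapped. Of the 7 coding sites above 5, 6 lay in the rod (85.7%, 48.7% to 97.4%), an interval that includes its share of the CDS. In MYH10, whose rod spans codons 875 to 1963, 14 of 23 coding PDCD4 sites lay in it (60.9%, 40.8% to 77.8%). The short tail of MYH9 held no site.

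PDCD4 sites fell in 30 of the 41 MYH9 exons and IgG sites in 16, while in MYH10 they fell in 12 and 3 of 43 exons. The last MYH9 exon alone held 124 sites with 382 cDNAs for PDCD4, against 7 sites with 20 for IgG. Exon 2, which carries the start codon, held 16 sites with 47 cDNAs against 1 site with 2. Within the rod, exon 38 held 7 sites with 30 cDNAs against 3 sites with 6, and exon 34 held 7 sites with 28 cDNAs against 1 site with 2.

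Within exons the sites kept away from the 3′ end. Of 134 PDCD4 sites of the members in exons that precede an intron, 0 lay within 60 nt of the exon end. These positions made up 40.9% of the exon length, and the nearest site was 62 nt away. The exact 0 allows a share of up to 2.24% if sites are independent, although some were adjacent. For IgG 1 of 21 such sites lay within 60 nt, at 21 nt, in MYH10. Both lists were thus nearly empty there for the members. The share over all genes was not computed, so this cannot be read as particular to the members. In actin and actin crosslinker genes, leaving out exon ends changed the coding PDCD4 sums little. They went from 416 to 399 cDNAs in FLNA, 657 to 652 in ACTB, 84 to 80 in ACTN1 and 82 to 78 in ACTN4, and stayed at 208 in ACTG1. The distance of 60 nt was chosen with earlier results of these data known. It lowers the density of genes with many short exons, and without these positions the MYH9 CDS had 91.8 PDCD4 cDNAs per kb (82.2 to 102), still below its 3′UTR.

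**Figure D4:**
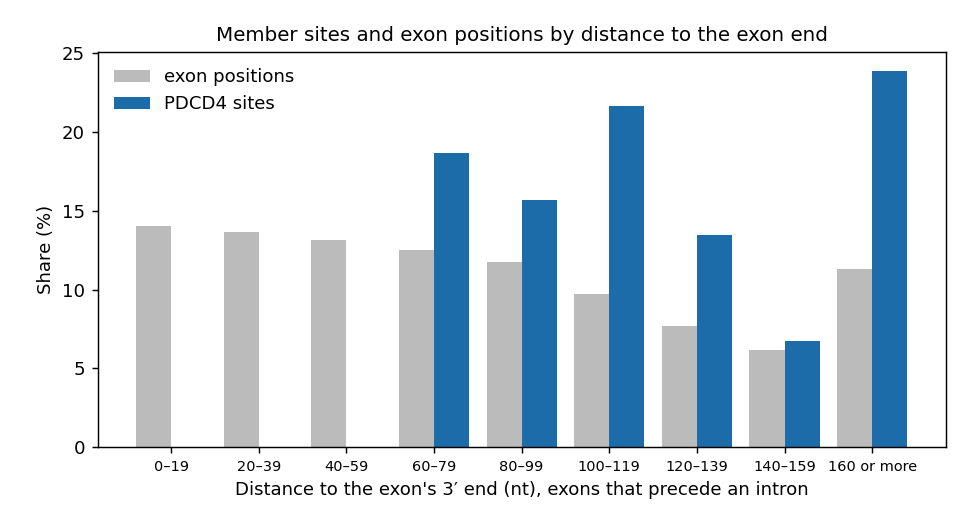
Share in percent of exon positions (grey) and of PDCD4 sites (blue) of the members by distance in nt to the 3′ end of the exon, for exons that precede an intron. No PDCD4 site lay in the bins up to 59 nt, which hold 40.9% of the positions.

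With these exon ends left out, the 3′UTR of MYH9 had 2.99 times the PDCD4 density of its CDS (2.57 to 3.48). In MYH10 the ratio was 1.10 (0.67 to 1.78), an interval that did not overlap that of MYH9. The same ratio was taken in 5 genes for actins and actin crosslinkers of the same filaments, a comparison added after the values were seen. It was 0.90 (0.79 to 1.02) for ACTB and 0.47 (0.36 to 0.61) for ACTG1, the cytoplasmic actins. For FLNA, a filamin that crosslinks actin, it was 1.10 (0.72 to 1.62), and for the alpha-actinins 0.61 (0.37 to 0.97) in ACTN1 and 0.86 (0.63 to 1.17) in ACTN4. The MYH9 interval lay above those of the other 6 genes compared. These density ratios were not recomputed with sites within 20 nt merged.

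Introns of MYH9 were not uniform. Intron 1, the longest (38551 nt, 38.8% of the intronic length), held 4 sites with 13 cDNAs for PDCD4 and 31 sites with 73 for IgG, a log2 ratio of -2.97 (-4.03 to -2.19). The remaining introns held 64 sites with 186 cDNAs for PDCD4 and 36 sites with 96 for IgG, a log2 ratio of 0.38 (0.02 to 0.76). Intron 3 alone held 15 sites with 48 cDNAs and 16 sites with 44, a log2 ratio of -0.44 (-1.06 to 0.18). This split was made after the values were seen, on the canonical transcript, whose introns together gave -0.33 (-0.64 to -0.03). The direction of the intronic ratio of MYH9 thus turned on intron 1. These intron ratios also carry the unequal floors of the lists for lone MYH9 sites, and were not recomputed at an equal floor.

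The nucleotide at the site differed between regions of MYH9. T was at 44.4% of PDCD4 sites in its 3′UTR (35.9% to 53.1%), against 25.3% of the letters of that UTR, and at 21.2% in the CDS (14.4% to 29.96%), against 14.2% of its letters. In the CDS the most frequent base at PDCD4 sites was C (38.5%, against 26.4% of the letters), followed by G (24.0%, against 32.8%). In the 3′UTR C was at 31.5% of sites, against 30.5% of the letters, and G was at 8.87%, against 22.7%. Over all MYH9 sites T was at 38.2% for PDCD4 (32.9% to 43.8%) and 45.7% for IgG, and over all genes at 46.7% and 51.6%.

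The pathway genes around myosin II are given as fixed lists, with the log2 ratio of genes with at least 50 cDNAs beside the -0.14 of all genes. Of 18 genes taken as muscle myosin chains, 17 had no site, including MYH11, the smooth muscle heavy chain. MYL6B alone was listed, with 3 PDCD4 and 10 IgG cDNAs, and this paralogue of MYL6 is not specific to muscle. Of 24 unconventional myosins, 12 were tested, 2 had a ratio above 1, none below -1, and the median was -0.04. The pair above 1 was MYO9B with 177 PDCD4 and 39 IgG cDNAs (1.59, 1.11 to 2.15), and MYO18A, with 139 and 36 (1.35, 0.84 to 1.95). MYO10, the filopodial myosin, had 136 and 50 (0.86, 0.40 to 1.37).

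Of 26 filament partners, 20 were tested, 2 had a ratio above 1, 1 lay below -1, and the median was -0.28. ACTB had 1079 and 179 cDNAs (2.02, 1.79 to 2.26) and FLNA 658 and 96 (2.20, 1.90 to 2.53). SEPT9, a septin, had 627 and 635 cDNAs (-0.59).

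**Figure D5:**
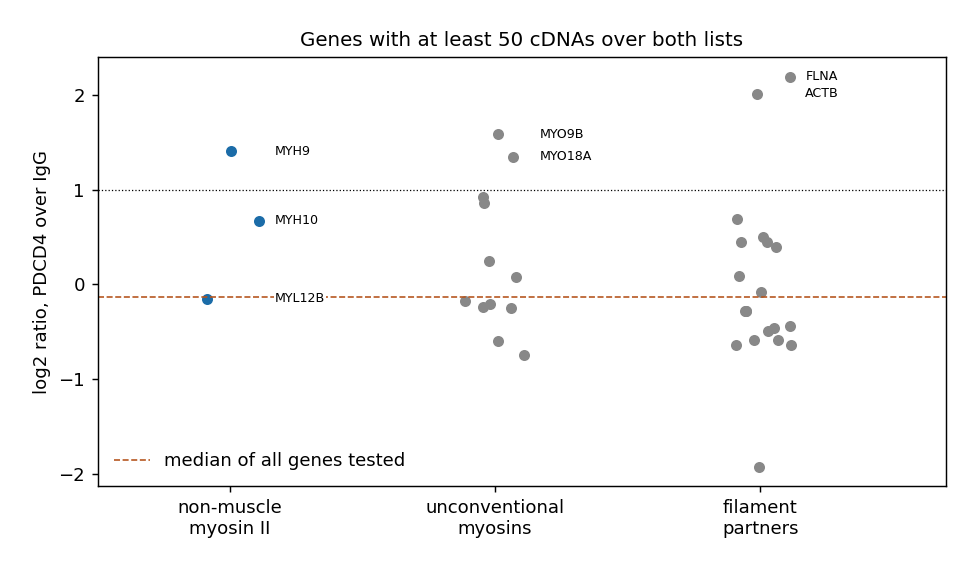
Log2 ratio of PDCD4 over IgG for the genes with at least 50 cDNAs over both lists, grouped into non-muscle myosin II chains and 2 pathway lists, with the median of all genes (-0.14, dashed) and a ratio of 1 (dotted). MYH9 at 1.41 lies above the dotted line together with MYO9B, MYO18A, ACTB and FLNA.

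Genes whose levels in the lists were most like those of MYH9, by the distance of their log10 shares over the 2 lists, were AHNAK, a giant scaffold protein (1013 PDCD4 and 273 IgG cDNAs, distance 0.0733), KRT7, a keratin of simple epithelia (808 and 267, distance 0.0813), and LAMA5, a laminin chain of the basement membrane (932 and 180, distance 0.118).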

How the data were processed

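The 2 PDCD4 and 2 IgG iCLIP replicates of MCF10A cells were processed by the authors with iCount on GRCh38 (Ensembl release 88), who deposited 1 list per immunoprecipitation with the replicates pooled. The deposited score is a raw count of cDNAs per 1-nt site. The methods describe removal of IgG crosslink sites and a filter on scores greater than 5. The filter is not applied in the lists. They share 721 positions, 4 of them in members, so how far the removal was applied is not known, and it bears on every ratio. Settings for alignment and cDNA collapsing are not given in the sources used here.

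Sites were placed on GENCODE release 44, a later release on the same build, which knew 99.6% of the labelled identifiers of each list. Where transcripts differed at a site, coding sequence took precedence, then the 3′UTR, the 5′UTR, ncRNA exons and finally introns. Genes were summed, scaled per 10000 cDNAs and compared with a pseudocount of 1; ratios have exact binomial intervals, levels exact Poisson and shares Wilson intervals, all at 95%. The interval and ratio code was tested on simulated data.

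Named were the 7 members, at most 4 genes per pathway list by PDCD4 sum, the 3 genes nearest MYH9, the 5 highest MYH9 sites and the highest of each other member; ESR1, MYL6B, MYH11 and the actinins and ACTG1 fell outside this rule. Some items that the rule names, and 1 pathway list, are not reported here. Members and lists were chosen with earlier results of these data known. Alternatives were other score thresholds, pseudocounts, totals and minimums, numbers of sites, merged sites, shared positions left out and a single transcript. Python 3.11.15, numpy 2.4.6, pandas 2.3.3, scipy 1.17.1, pysam 0.24.0 and matplotlib 3.10.9 were used.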

Additional observations from a re-analysis of the deposited data

How the results depend on the processing

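No paired analysis was possible because each list pools its replicates, and no replicate could be left out for the same reason. Of 78 values recomputed, 67 moved by less than their interval or count limit. Counting sites in place of cDNAs gave log2 ratios of 1.19 for MYH9 and 0.90 for MYL12B, and merging sites within 20 nt gave 0.23 and 0.87, with 0 members above 1. Scores above 10 left 0 members above 1 and 1 PDCD4 site, and no threshold 380 sites. With scores above 5, 85.7% of MYH9 coding sites lay in the rod. Set against the same regions of each list, an alternative chosen after seeing the data, the MYH9 ratio was 2.09 for mature sites and 0.0069 for introns, the sign turned. The cause was not tested. Above 5, no member had a site in both lists, and no member ratio is given. MYL9, MYL12A and MYL6 were limited by depth, with at most 24 cDNAs in a list.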
